A study of Mus musculus with 7 samples.

Results

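Mucous neck and gland cells of the mouse stomach were taken as single cells that carried transcripts of Muc6, the gel-forming mucin of the deep glands, or of A4gnt, the glycosyltransferase that adds the terminal N-acetylglucosamine of gland mucus, and that carried little of the transcripts that mark neighbouring cell types. They were selected on these measured values. A well had to hold at least 1000 UMIs (unique molecular identifiers, each standing for 1 captured transcript) besides spike-in RNAs, and at least 3 UMIs of Muc6 and A4gnt together, making up at least 0.02% of its UMIs. It also had to hold under 0.2% of Gif, under 10% of the pit cell transcripts Tff1, Gkn1, Gkn2 and Muc5ac together, under 0.5% of the proton pump transcripts Atp4a and Atp4b together, and under 0.3% of Chga. Of 2235 wells kept at 1000 UMIs or more, out of 2688 sorted, 351 met the rule and are called members here. The levels of the 10 genes of the rule describe how the wells were chosen and are no result.

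Gastric glands run from a pit at the surface down to a base. Mucous neck cells lie in the middle of the glands of the corpus, the acid-secreting body of the stomach, and related mucous gland cells line the deep glands of the pylorus, the outlet towards the intestine. Both secrete MUC6 mucin together with the trefoil peptide TFF2, and neck cells are known as a source of the pepsinogen-making chief cells at the base of corpus glands.

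The study measured gastric epithelium of C57BL/6 mice by SORT-seq, in which a sorter puts 1 living, DAPI-negative cell into each well of a plate and transcripts are counted from their 3′ ends. There were 4 plates from the gastric corpus region and 3 from the gastric pylorus region, each with 384 wells, all titled WT and with no treatment. The labels give neither the age or sex of the mice nor which plates share an animal, so p-values measure the spread between plates, which may be technical. No well held the same counts as the well in the same position of another plate.

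The plates did not all look alike. Spike-in RNAs made up 4.27% of all UMIs of corpus replicate 1 and 6.55% of those of pylorus replicate 1, against 0.256 to 0.426% on the other plates. The median member held 8572 UMIs on corpus replicate 1 and 9103.5 on pylorus replicate 1, against 17018.5 to 22365 elsewhere. Corpus replicates 3 and 4 and pylorus replicates 2 and 3 are called the 4 alike plates here, a set chosen with earlier results of these data known. Corpus replicates 1 and 2 and pylorus replicate 1 differed from them in transcripts such as Spp1, described further on.

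Members were found on every plate and made up a smaller share of pylorus wells. They numbered 47, 48, 69 and 55 on corpus replicates 1 to 4, together 219 of 1252 kept wells, and 40, 48 and 44 on pylorus replicates 1 to 3, together 132 of 983. Their share of the kept wells was 16.9%, 17.2%, 19.1% and 16.5% on the corpus plates and 16%, 13.2% and 11.9% on the pylorus plates. Every pylorus plate thus lay below every corpus plate. The 95% Wilson intervals of corpus replicate 4, 12.9% to 20.8%, and pylorus replicate 3, 9.004% to 15.6%, overlapped, and they cover counting error only. The mean share was 17.4% ± 1.17 (SD, n = 4) in corpus and 13.7% ± 2.09 (SD, n = 3) in pylorus, a difference of -3.72 percentage points (two-sided exact permutation test over plates, p = 0.0286, the smallest that 35 arrangements allow).

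The set of wells counted mattered for this share. Immune wells were unevenly spread, and an alternative added after seeing the data kept only wells with fewer than 5 UMIs of immune and mast cell markers. This cut applied to members and to the other wells alike, and left 302 of the 351 members. The share was then 17.3%, 17.4%, 27.3% and 24.3% on the corpus plates and 16.4%, 18.3% and 19.7% on the pylorus plates, and the regions overlapped (difference -3.46 points, two-sided exact permutation p = 0.343). Over wells of at least 3000 UMIs the difference was -4.08 points (exact permutation p = 0.114).

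**Figure D1:**
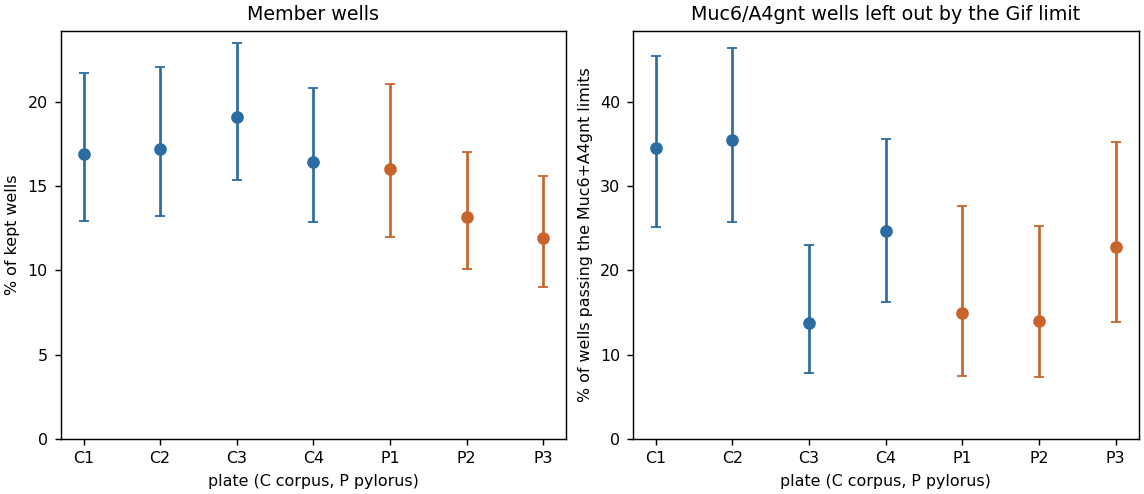
Left, members as a percentage of kept wells on each plate with 95% Wilson intervals (C1 to C4 corpus, P1 to P3 pylorus), and right, the percentage of wells within the Muc6 and A4gnt limits that the Gif limit left out. The 3 pylorus plates lie at 11.9 to 16% and the 4 corpus plates at 16.5 to 19.1%, while the Gif limit took 13.8 to 35.4%.

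The limit on Gif, the transcript of the chief cell product intrinsic factor, removed more wells than the other limits. Of the kept wells, 734 held at least 3 UMIs of Muc6 and A4gnt, and 474 of those also reached 0.02%. Of these, 113 were over the limit for Gif, 7 for Chga, 6 for the pit transcripts and 0 for the proton pump, with 3 wells over more than 1 limit. The wells lost to Gif were 28, 28, 11 and 18 on the corpus plates and 7, 8 and 13 on the pylorus plates. With these counted in, an alternative added after seeing the data, the share was 21.6 to 26.98% on corpus plates and 15.4 to 18.8% on pylorus plates (difference -7.76 points, two-sided exact permutation p = 0.0286). At the edges of the rule, 38 members held under 0.03% of Muc6 and A4gnt, and 49 wells outside held 0.015% to 0.02%. The highest Gif share of a member was 0.197% and the lowest among wells left out by Gif was 0.201%.

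Most members carried both defining transcripts. Muc6 and A4gnt were found together in 333 members, A4gnt without Muc6 in 15 and Muc6 without A4gnt in 3. Levels are given in CPM, the UMIs of a gene summed over the members of a plate and scaled to a common total. Muc6 was at 664.4, 768.9, 682.8 and 760.7 CPM on corpus replicates 1 to 4 and 803.6, 319 and 312.7 CPM on pylorus replicates 1 to 3. A4gnt was at 574.2, 796.5, 569.8 and 612.7 CPM on the corpus plates and 588, 387.3 and 332.4 CPM on the pylorus plates. For both genes pylorus replicates 2 and 3 were the lowest of the 7 plates, whereas pylorus replicate 1 held the highest Muc6 and lay within the corpus range for A4gnt. In single members Muc6 ranged from 0 to 4370.4 CPM, with a median of 450.7.

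Promoter sequence is shown for Muc6 and A4gnt because they define the wells. Of the 25 genes furthest above the other wells, only Agr2 and Spdef were searched, and Spdef is shown because it held a match. The 250 bases before each start site in RefSeq (GRCm38.p6) were searched on both strands for AGATAA, a sequence bound by GATA factors and read as TTATCT from the other strand, and for ACGTG, a core sequence of several bZIP factors, which reads CACGT from the other strand. Each line holds the 30 bases around the match, 5′ to 3′ in the direction of the gene, with the match in capitals.
Muc6: ctgggagtgggaAGATAAtggggccacaac
A4gnt: caagtgtgtggtTTATCTaaaaattcttgt
Spdef: ctggtctcactgACGTGttctttatgcctt
The Muc6 window is chr7:141655570-141655599 on the minus strand, and its match lies 194 bases before the start. The A4gnt window is chr9:99612328-99612357 on the plus strand, with the match 162 bases before the start and read on the opposite strand. The Spdef window is chr17:27729133-27729162 on the minus strand, with its match 199 bases before the start. Among 32851 RefSeq promoters of the same length, 9.99% held AGATAA and 16.6% held ACGTG on either strand. These matches are descriptions of the letters only. Neither motif was found in the listed promoter of Agr2. Gata4, a GATA factor of the stomach, was at 198.1 to 320.5 CPM in members of the 7 plates and 179.1 to 307.8 CPM in the other kept wells.

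Of the neck markers outside the rule, Agr2 and Ern2 were far above the other wells and Tff2 was not. Agr2, a protein disulfide isomerase needed for mucin folding, was at 3873, 2436, 1306 and 1609 CPM on corpus replicates 1 to 4 and 3853, 1333 and 1218 CPM on pylorus replicates 1 to 3 in members. The other kept wells held 1799.5, 405.9, 195.6 and 303.2 CPM on the corpus plates and 755.4, 290.3 and 243.5 CPM on the pylorus plates. Members were above the others on all 7 plates, by a median log2 ratio of 2.35 (1.105 to 2.73). Ratios are taken on log2 of CPM + 2, which understates the change of low genes. Ern2, a stress sensor of the endoplasmic reticulum in mucous cells, was at 217.5 to 456.6 CPM in members and 68.8 to 129.6 CPM in the others (median log2 ratio 1.69). Spp1, the secreted matrix protein osteopontin, was above the others on all 7 plates by a median of 0.52.

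Tff2, the trefoil peptide of neck cell mucus, was abundant in wells of all kinds. Members held 36589, 4437, 6506 and 6404 CPM on corpus replicates 1 to 4 and 4151, 5504 and 4489 CPM on pylorus replicates 1 to 3. The other wells held 18511, 2902, 4483 and 5472 CPM on the corpus plates and 7594, 7352 and 6218 CPM on the pylorus plates. Members lay above the other wells on the 4 corpus plates (median log2 ratio 0.57) and below them on the 3 pylorus plates (-0.47). After thinning each well to 3000 UMIs, Tff2 was found in 96.5% of members and also in 93.8% of immune cell wells, which should lack it. Tff2 thus did not separate members from the other wells in pylorus, while Agr2 and Ern2 were above them on all 7 plates.

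Agr2 and Ern2 stood above the level of immune wells at equal depth. Thinning to 3000 UMIs kept 344 members, 1697 other wells and 113 immune wells, and left out 7, 187 and 36 that were shallower; the immune wells are among the other wells. Agr2 was then found in 94.5% of members, 42.9% of other wells and 8.85% of immune wells (99.4%, 70.7% and 18.1% before thinning), and Ern2 in 61.9%, 20.5% and 9.73%. Some genes named further on were common in immune wells as well, Creb3l1 in 38.9% and Sox9 in 45.1% of them, against 81.7% and 80.5% of members.

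Markers of other cell types were summed in members and in the other wells, with the genes of the rule left out of the endocrine, pit and parietal lists since their levels were capped. The 8 remaining endocrine markers summed to 323.4 to 1033 CPM in members and 1809 to 10544 CPM in the other wells. The 4 remaining pit markers summed to 761.5 to 1669 CPM in members and 2649 to 7099 CPM in the other wells. Members were thus under every other-well plate value for both lists. The pit sum hides 1 marker that went the other way. Of 7 pit markers at 10 CPM or more, rule genes included, 6 were below the other wells on all 7 plates. The other, Muc1, was above them on all 7. The 6 remaining parietal markers summed to 321.4 to 486.8 CPM in members and 342.4 to 762.1 CPM in the other wells, and the ranges overlapped. The 8 immune markers summed to 0 to 24.5 CPM in members and 10.8 to 116.4 CPM in the other wells, with Cd3e, Lyz2 and Cd79a at 0 in members, and the 7 tuft markers to 7.17 to 90.2 CPM and 79.02 to 486.3 CPM, with Gnat3 at 0 in members. The ranges of both overlapped. The 8 chief markers, which include Gif of the rule, summed to 50326 to 196258 CPM in members and 42016 to 151171 CPM in the other wells. Of the 5 chief markers at 10 CPM or more, 2 were above the other wells on all 7 plates and 3, Gif among them, below. The 6 mast cell markers summed to 709.2 CPM in members of corpus replicate 4 and 0 to 135.5 CPM elsewhere. Pgc, a pepsinogen of neck, pyloric and chief cells, was at 49242 to 179494 CPM in members and 33720.5 to 91666 CPM in the others. The highest Pgc count in a member was 4088 UMIs, close to the 4095 that a UMI of 6 bases could count, so its level may be understated in such wells. The UMI length is not given in the sources used here.

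Members were compared with all other kept wells plate by plate, as a description with no test, since the wells were selected on the same profiles. Of 1200 genes at 100 CPM or more in members, the rule's own genes left out, 388 (32.3%) were above the other wells on all 7 plates and 108 (9.00%) below on all 7. The 25 genes with the largest median ratio included 4 transcription factors, named in this paragraph. Creb3l4, a membrane-bound bZIP factor, was at 173 CPM ± 22.5 in members and 27.7 ± 12.5 in the others (SD, n = 7 plates), with 190.1, 199.6, 151 and 171 CPM on the corpus plates and 196.9, 147.5 and 155.2 CPM on the pylorus plates in members. Spdef, a regulator of mucous cell maturation, was at 180.3 CPM ± 60.97 in members and 34.7 ± 14.6 in the others, and Creb3l1, a bZIP factor of secretory cells, at 661.9 CPM ± 214.2 in members and 175.6 ± 62.8 in the others. Every plate's sum of members exceeded every plate's sum of the other wells for Creb3l4, although single members could hold none, 54 of 351. Klf5, a factor of proliferating and differentiating epithelium, was at 423.8 CPM ± 144.1 in members and 143.9 ± 95.01 in the others.

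Pga5, a pepsinogen, had the largest median log2 ratio, 3.13, and differed widely between plates, at 362.6, 1579, 192.3 and 343.5 CPM on corpus replicates 1 to 4 and 1996, 290.2 and 201.5 CPM on pylorus replicates 1 to 3. It was highest on pylorus replicate 1 and corpus replicate 2. Pigr, which carries immunoglobulin A across epithelium, was at 252.8, 39.9, 84.5 and 108 CPM on the corpus plates and 45.2, 380.1 and 508.4 CPM on the pylorus plates, against 84.3, 8.96, 14.7 and 21 CPM on the corpus plates and 6.25, 83.2 and 91.8 CPM on the pylorus plates in the others. Cfi, complement factor I, was at 518.6 CPM ± 164.3 in members and 107.4 ± 26.3 in the others. Gfpt1, the first enzyme of the hexosamine pathway that supplies sugars for glycosylation, was at 893.9 CPM ± 120 in members and 269.7 ± 83.95 in the others. Rnf152, a ubiquitin ligase, varied little, at 207.1 CPM ± 22 in members and 48.5 ± 13.4 in the others.

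Further genes of the 25 were Ppp2r1b, Tstd1, Chad, D630039A03Rik, Cyp2c44, Ppic, Emp1, Ppp1r3a, Cgref1, Cpn1, Erlin1, Slc1a3, Bcl2 and Liph, with median log2 ratios of 1.73 to 2.399. Of the 25 genes, 20 had their smallest ratio on corpus replicate 1, where Bcl2, an inhibitor of apoptosis, was at 31.4 CPM in members and 31.1 CPM in the others. Without that plate, an alternative added after seeing the data, 465 of 1159 genes were above the other wells on all remaining plates and 119 below.

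**Figure D2:**
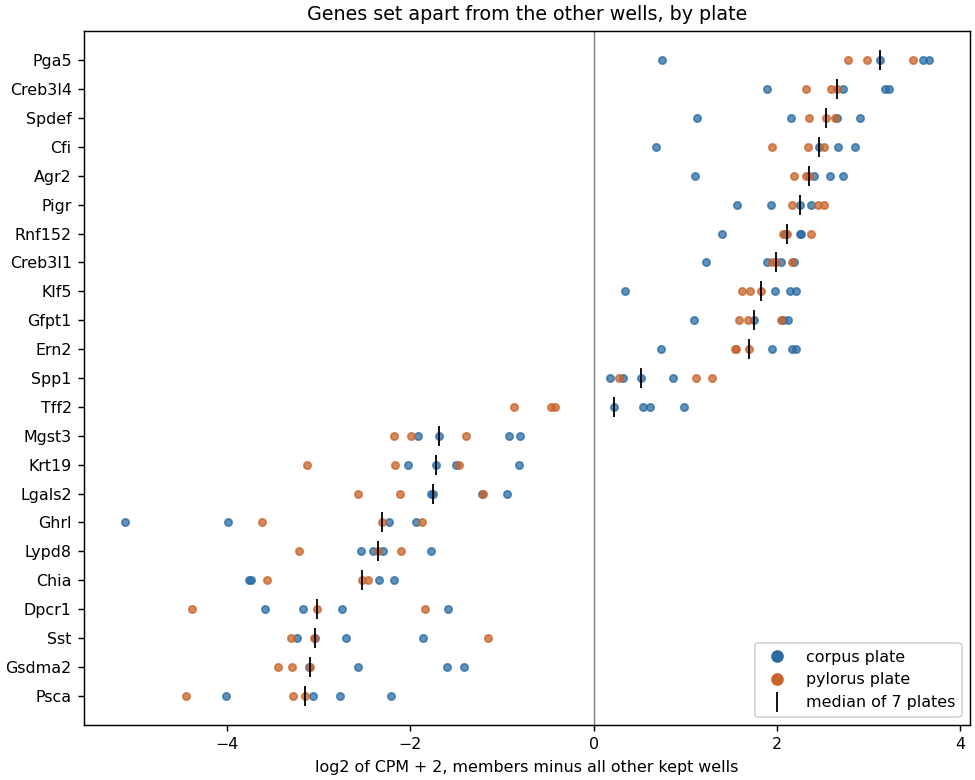
Difference in log2 of CPM + 2 between members and all other kept wells (x axis) for 10 of the 25 genes with the highest median, the 10 with the lowest, and Tff2, Spp1 and Ern2; points are plates coloured by region and bars are medians of 7 plates. Creb3l4 and Spdef lie above 1 on every plate, and Tff2 lies above 0 on the corpus plates and below 0 on the pylorus plates.

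At the other end of the order, Psca, a surface protein of gastric epithelium, was at 262.1 CPM ± 66.2 in members and 2851 ± 1698 in the others (median log2 ratio -3.15). Gsdma2, a gasdermin, was at 179.9 CPM ± 105.7 in members and 1144 ± 446.1 in the others, and Dpcr1, a mucin-like protein, at 271.5 CPM ± 245.4 in members and 1689.9 ± 930.5 in the others. Sst and Ghrl, which encode somatostatin and ghrelin, had median log2 ratios of -3.04 and -2.31. The remaining 5 of these 10 were Chia, Lypd8, Lgals2, Krt19 and Mgst3, at -2.53 to -1.68.

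Many genes that build mucin sugars were above the other wells. Of 21 genes of the mucin glycosylation list at 10 CPM or more in members or others, 13 were above on all 7 plates and 1, Ugdh, was below (median log2 ratio 0.59). Over all 7917 genes at that level, 15.3% were above and 7.41% below on all 7 plates, and the median was 0.11. Galnt7, Galnt3 and Galnt12, which start O-glycans, averaged 370.9, 119.1 and 136.2 CPM in members against 184, 47.1 and 57.02 CPM in the others. B4galt1 and Gcnt1, which extend and branch glycans, averaged 205.6 and 44.1 CPM against 111.1 and 15.7 CPM. Gne, the key enzyme of sialic acid synthesis, averaged 33.8 and 19.4 CPM. Ugdh, which makes UDP-glucuronic acid, averaged 45.8 CPM in members and 149 CPM in the others.

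Of 28 genes of the endoplasmic reticulum and mucus secretion list, 11 (39.3%) were above the others on all 7 plates and 0 below (median log2 ratio 0.23). Over all genes the shares were 15.3% and 7.41% and the median 0.11. Among genes at 100 CPM or more in members, 32.3% were above. Pdia3 and Pdia5, disulfide isomerases, averaged 457.6 and 64.9 CPM in members against 254.6 and 34.1 CPM, and Kdelr3, a retrieval receptor, 56.6 against 19.7 CPM. The chaperones Hspa5 and Hsp90b1 and the stress factor Atf4 were above on some plates and below on others, with median log2 ratios of 0.24, 0.22 and -0.01.

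Of 13 genes of ion transport and hydration, 7 (53.8%) were above the others on all 7 plates and 0 below, beside 15.3% and 7.41% over all genes. Slc12a2, which loads chloride for secretion, was at 449.7 to 675.7 CPM in members and 244.2 to 389.4 CPM in the others. Aqp5, a water channel of gland cells, was at 305.7 CPM in members of corpus replicate 1 and 20.9 to 47.9 CPM elsewhere. Igf1, a growth factor, averaged 98.2 CPM in members and 30.96 CPM in the others.

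Of 9 genes of the gland base list at 10 CPM or more, 3 (33.3%, beside 15.3% over all genes) were above on all 7 plates: Sox9, Aqp5 and Lrig1. Sox9, a factor of gland progenitors and mucous cells, was at 407.6 to 993.7 CPM in members and 188.4 to 341.5 CPM in the others. Lgr5, a receptor of stem cells at the gland base, was under that level and below the other wells on all 7 plates, at 0 to 21.6 CPM in members and 4.85 to 22.9 CPM in the others. Gkn3, a gastrokine, was at 8129, 796.5, 150.4 and 657.6 CPM on corpus replicates 1 to 4 and 329.9, 83.9 and 151.7 CPM on pylorus replicates 1 to 3. It was highest on corpus replicate 1.

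The Muc6 and A4gnt wells left out by the Gif limit held several mucous genes at levels near those of members. Agr2 averaged 2180.2 CPM and Creb3l1 637.6 CPM in these 113 wells, against 2233 and 661.9 CPM in members. Of the 25 leading genes, 7 were above these wells on every plate and 0 below on every plate. All 25 were above 258 Gif wells that missed the Muc6 and A4gnt limits on every plate, and above 405 pit wells. Those Gif wells still averaged 59.2 CPM of A4gnt and 27.5 CPM of Muc6. All these sets are among the other wells against which the 25 genes were picked, so the counts are descriptions only. Car2, a carbonic anhydrase, was higher in members, at 1886 to 2708 CPM against 545.9 to 1004 CPM in the Muc6 and Gif wells. Clu, a secreted chaperone, averaged 4008 and 2243 CPM, and Car9, another carbonic anhydrase, 363.5 and 89.2 CPM.

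Other genes were lower in members than in the Muc6 and Gif wells. Bhlha15, the factor MIST1 of chief cell maturation, was at 5.16 to 14.4 CPM in members and 27.1 to 99.02 CPM in the Muc6 and Gif wells. Clps, colipase, averaged 9945 and 52060.1 CPM. Xbp1, a factor of the secretory apparatus, averaged 837.8 and 1269 CPM. Gkn3 was below these wells on every plate, with a mean of 1471 CPM in members and 6128 CPM in the Muc6 and Gif wells. Gif separated the groups by rule, so these are descriptions. Some plates held few such wells, down to 7, and whether a well held RNA of more than 1 cell was not tested.

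**Figure D3:**
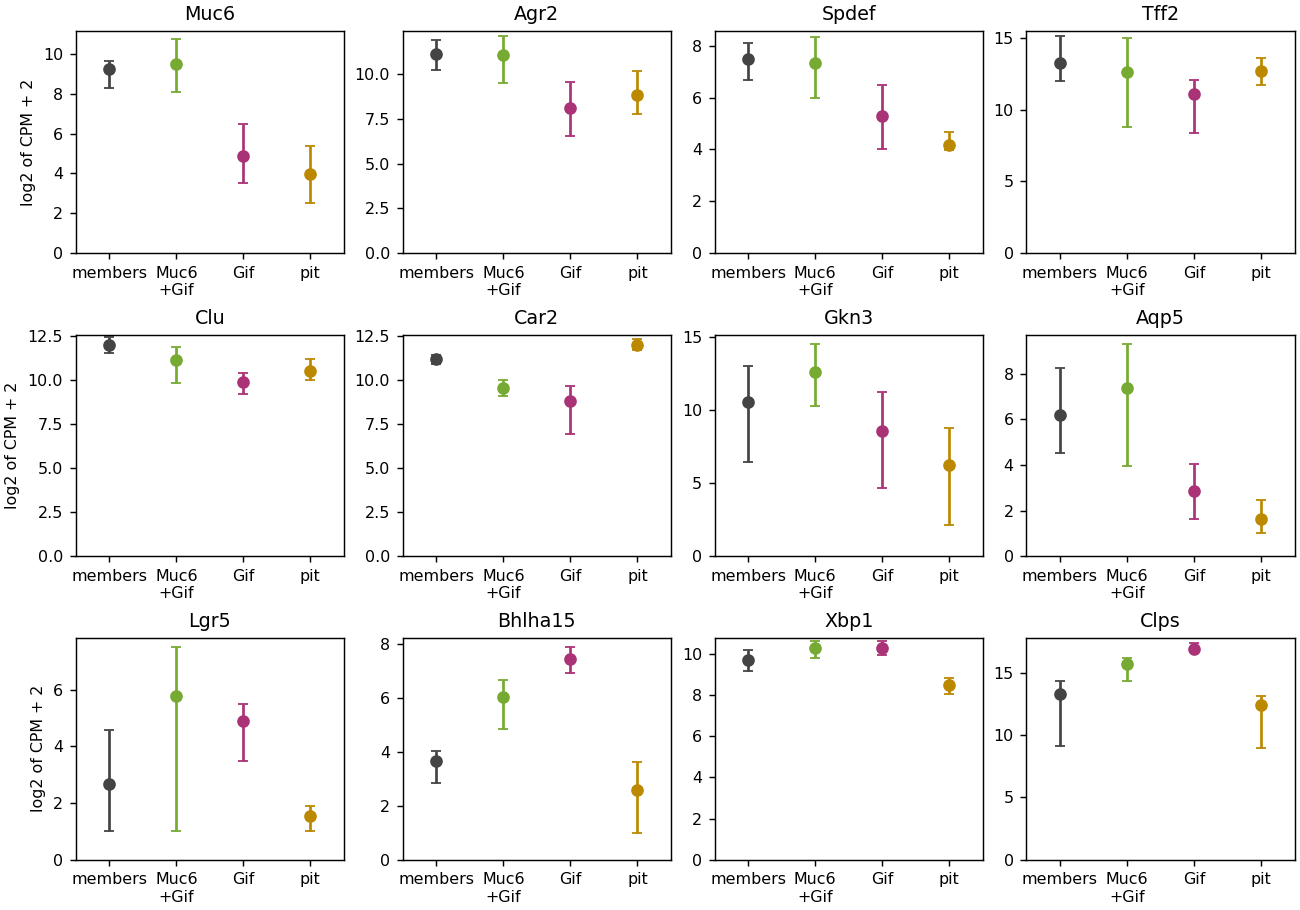
Mean over plates (points) and range over plates (bars), as log2 of CPM + 2 on the y axis, of single genes in members, in Muc6 and A4gnt wells left out by the Gif limit, in Gif wells that missed the Muc6 and A4gnt limits, and in pit wells. Car2 is lower and Bhlha15 and Clps are higher in the Muc6 and Gif wells than in members, while Agr2 and Spdef overlap.

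Members of corpus replicate 1 stood apart from those of the other plates in several genes. The median member there held 26279 CPM of Tff2, against 734.6 to 3603 CPM on the other plates. Cd44, a hyaluronan receptor, was at 341 CPM there and 5.996 to 16.4 CPM elsewhere, and Pgc at 49242 and 131258 to 179494 CPM. With wells thinned to 3000 UMIs, the 18 cell cycle genes reached 10 UMIs in 10 of 42 members there (23.8%, 95% Wilson interval 13.5% to 38.5%), against 0 to 4.54% on the other plates. The other kept wells also had the highest share there, with 27.3% on corpus replicate 1 and 2.42 to 7.36% elsewhere.

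Spp1 and Agr2 varied between plates of both regions. Spp1 was missing from 3 of 40 members of pylorus replicate 1, where the median member held 774.7 CPM. The median was 61.5 and 164.4 CPM on corpus replicates 1 and 2 and 0 on the 4 alike plates, where 75.4 to 85.4% of members held none. The median of Agr2 per member was 3417, 1912, 1236 and 1454 CPM on corpus replicates 1 to 4 and 3280.1, 1254 and 933.1 CPM on pylorus replicates 1 to 3. It was highest on corpus replicate 1 and pylorus replicate 1.

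**Figure D4:**
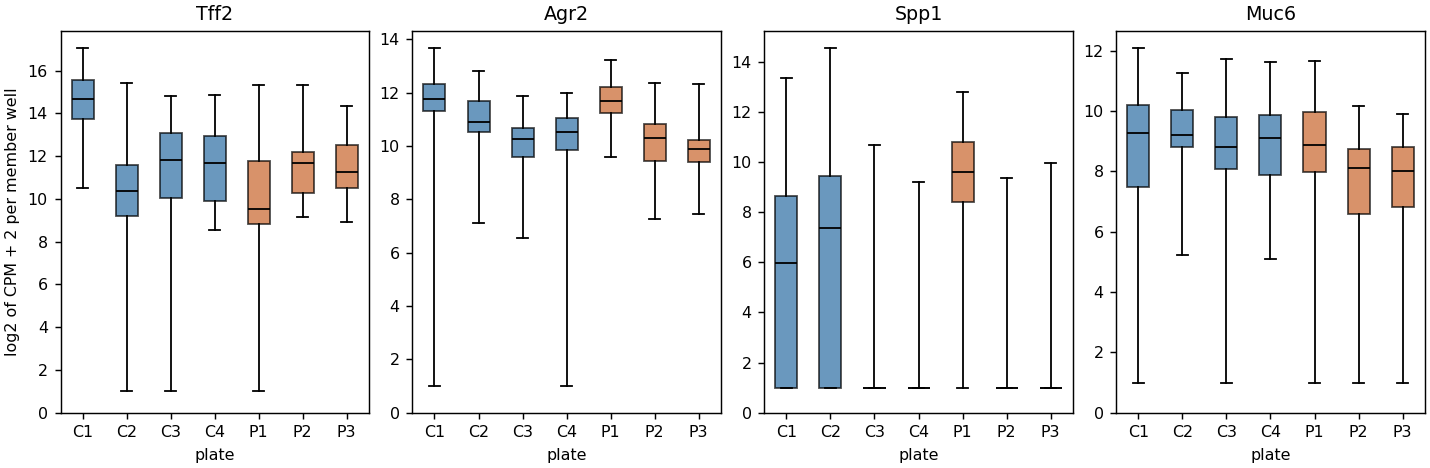
Tff2, Agr2, Spp1 and Muc6 in single members of each plate, as log2 of CPM + 2 on the y axis; boxes span the quartiles with the median, and whiskers run to the lowest and highest member. By median, Tff2 is highest on C1, Spp1 on P1, and Agr2 on C1 and P1.

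To ask how these cells differ between corpus and pylorus, the UMIs of members were summed per plate and compared with limma. Of 7658 genes tested, 3 had an adjusted p (Benjamini-Hochberg) under 0.05 (0.0392%), and 235 had an unadjusted p under 0.05. Plates of the regions did not overlap for 203 genes higher (2.65%) and 170 lower in pylorus (2.22%). Of the 35 arrangements of plates, 1 separates the regions in each direction. By chance alone a gene thus separates with probability 0.0286 each way, which is above both shares. The 3 genes that passed were Bpifb1 and Lrp2, higher in pylorus, and Amotl1, lower. Levels in this comparison are CPM after TMM scaling, which sets plates to a common level over most genes, and a log2 difference is pylorus minus corpus on log2 of CPM + 2.

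Bpifb1 (chromosome 2), a secreted defence protein of mucosae, rose in pylorus members. It was at 14.7, 47.8, 17.3 and 52.98 CPM on corpus replicates 1 to 4 and 289.2, 505.3 and 1165 CPM on pylorus replicates 1 to 3, and the regions did not overlap. The log2 difference was 4.18 ± 0.51 (SE; limma adjusted p = 0.0311), and the call was lost among genes of at least 32 CPM (limma adjusted p = 0.0667) and with members thinned to 1000 UMIs (0.984). Bpifb1 was found in 54 of 219 corpus members and 85 of 132 pylorus members. A few wells held much of it: on pylorus replicate 1, 3 wells held 91.2% of its 113 UMIs in members. Thinned to 3000 UMIs, it was found in 2.90 to 7.27% of members on corpus plates and 13.2, 35.4 and 56.8% on pylorus replicates 1 to 3, against 9.73% of immune wells, most of them from pylorus plates. Immune wells of the corpus plates held it in 0 of 53, which allows a share of up to 5.66%, and those of the pylorus plates in 18.3% (95% Wilson interval 10.6% to 29.9%). Members held it in 5.61% over the corpus plates (3.24% to 9.54%) and 36.1% over the pylorus plates (28.4% to 44.7%). The share on pylorus replicate 1 lay within the interval of pylorus immune wells, and the corpus shares were near the limit for corpus immune wells. These immune wells came mostly from other plates than replicate 1, with 1, 20 and 39 on pylorus replicates 1 to 3. On corpus replicates 1 to 4 they numbered 1, 3, 21 and 28. The other kept wells differed in the same direction, with 8.76 to 22.7 CPM on corpus plates and 119.2 to 273 CPM on pylorus plates.

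Lrp2 (chromosome 2), which encodes the endocytic receptor megalin, rose as well. No Lrp2 UMI was found among 4259122 UMIs of corpus members, which allows up to 0.704 CPM (3 counts over the group, counting error only), and 137 were found in pylorus members. The levels were 17.9, 62.7 and 94.1 CPM on pylorus replicates 1 to 3, all above the corpus plates at 0. Taken over all members, the pylorus level of 66.1 CPM was 93.8-fold this corpus limit. That figure leaves out the spread between plates and wells, so it is no lower bound. The fitted log2 difference of 4.64 (limma adjusted p = 0.0311) depends on the pseudocount, and the call was lost at a pseudocount of 0.5 (limma adjusted p = 0.411). It was also lost under the limit of 5 UMIs and 0.05% of Muc6 and A4gnt (limma adjusted p = 0.396), in wells of at least 3000 UMIs (0.0704), with voom weights (0.0575) and with the replicate block (0.0694). Lrp2 was found in 26 pylorus members, 24 of which also held Bpifb1. It was not confined to members. Thinned to 3000 UMIs, it was found in 12 of 344 members (3.49%) and 15 of 1697 other kept wells (0.884%). Before thinning the shares were 7.41% and 2.02%.

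Amotl1 (chromosome 9), a junction protein of the angiomotin family, fell in pylorus members. It was at 34.2, 82.3, 69.98 and 63.4 CPM on corpus replicates 1 to 4 and 12.8, 10.03 and 8.23 CPM on pylorus replicates 1 to 3, with no overlap. The log2 difference was -2.33 ± 0.32 (SE; limma adjusted p = 0.0327). The call was lost with voom weights (limma adjusted p = 0.428), with all wells weighed equally (0.0926), with the replicate block (0.0727) and among genes of at least 32 CPM (0.117). It was found in 127 corpus members and 14 pylorus members. The other kept wells held 12.96 to 51.3 CPM on corpus plates and 2.81 to 8.04 CPM on pylorus plates, likewise without overlap. Its promoter is shown since it was the only one of the 3 genes with a match, to ACGTG on the strand opposite to the gene.
Amotl1: gtctcagggagaCACGTcagcctgagtccc
The window is chr9:14615106-14615135 (GRCm38.p6) on the minus strand, and the match lies 123 bases before the start. Neither motif was found in the listed promoters of Bpifb1 and Lrp2, which says only that these letters are not in those windows.

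The calls depended on single plates. Leaving out corpus replicate 2, corpus replicate 3 or pylorus replicate 3 gave 0 limma calls each, with 207, 200 and 288 genes at an unadjusted p under 0.05. Without corpus replicate 4 only Bpifb1 passed, without pylorus replicate 1 Bpifb1 and Lrp2 passed, and without pylorus replicate 2 only Meis2 did. Without corpus replicate 1 the same 3 genes passed. Across these fits the log2 difference was 3.64 to 4.65 for Bpifb1, 4.16 to 5.29 for Lrp2 and -2.58 to -2.19 for Amotl1. In a fit without members that held 5 or more mast and immune marker UMIs, added after seeing the data, Bpifb1 and Lrp2 passed and Amotl1 was at -2.57 (limma adjusted p = 0.0841).

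Further genes did not overlap between the regions but missed the threshold. Such a lack of overlap was no more common than chance gives, so by itself it does not set a gene apart by region. Among those lower in pylorus, Meis2, a homeobox factor, was at 42.4, 37.6, 38.96 and 28.7 CPM on corpus replicates 1 to 4 and 2.56, 11.3 and 2.35 CPM on pylorus replicates 1 to 3 (log2 difference -2.59 ± 0.41 SE, limma adjusted p = 0.11). Slc4a4, a sodium bicarbonate cotransporter, was at 53.8, 44.7, 62.8 and 39.1 CPM on the corpus plates and 17.9, 10.03 and 16.5 CPM on the pylorus plates (-1.64 ± 0.28 SE, limma adjusted p = 0.139). Dnajc10, a reductase of the endoplasmic reticulum, was at 378.5 CPM ± 32.5 in corpus and 217 ± 51.6 in pylorus. Kcne3, a potassium channel subunit, was at 301.4 CPM on corpus replicate 1, 10.8 to 62 CPM on the other corpus plates and 2.35 to 8.78 CPM in pylorus. Add3, 2310042E22Rik, Sord, Tesc, Hpgd, Sat1 and Gm608 had log2 differences of -1.47 to -0.64.

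Among those higher in pylorus, Diras2, a small GTPase, was at 13.03, 41.7, 41.1 and 46.03 CPM on corpus replicates 1 to 4 and 102.4, 159.3 and 115.2 CPM on pylorus replicates 1 to 3 (log2 difference 1.88 ± 0.38 SE, limma adjusted p = 0.567). Irx5, an Iroquois homeobox factor, was at 0, 14.2, 12.99 and 12.2 CPM on the corpus plates and 28.1, 92.8 and 50.5 CPM on the pylorus plates. Trf, transferrin, was at 19.1 CPM ± 12.4 in corpus and 60.6 ± 21.97 in pylorus. Wfdc2, a secreted protein with whey acidic protein domains, was at 58.5 CPM ± 20.2 in corpus and 123.3 ± 25.3 in pylorus. Crip2, Gmeb1, Gpm6a, Ing2, Slfn9 and Hspa1b had log2 differences of 0.84 to 1.11. The limma adjusted p of these 6 and of Irx5, Trf and Wfdc2 was 0.9996.

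**Figure D5:**
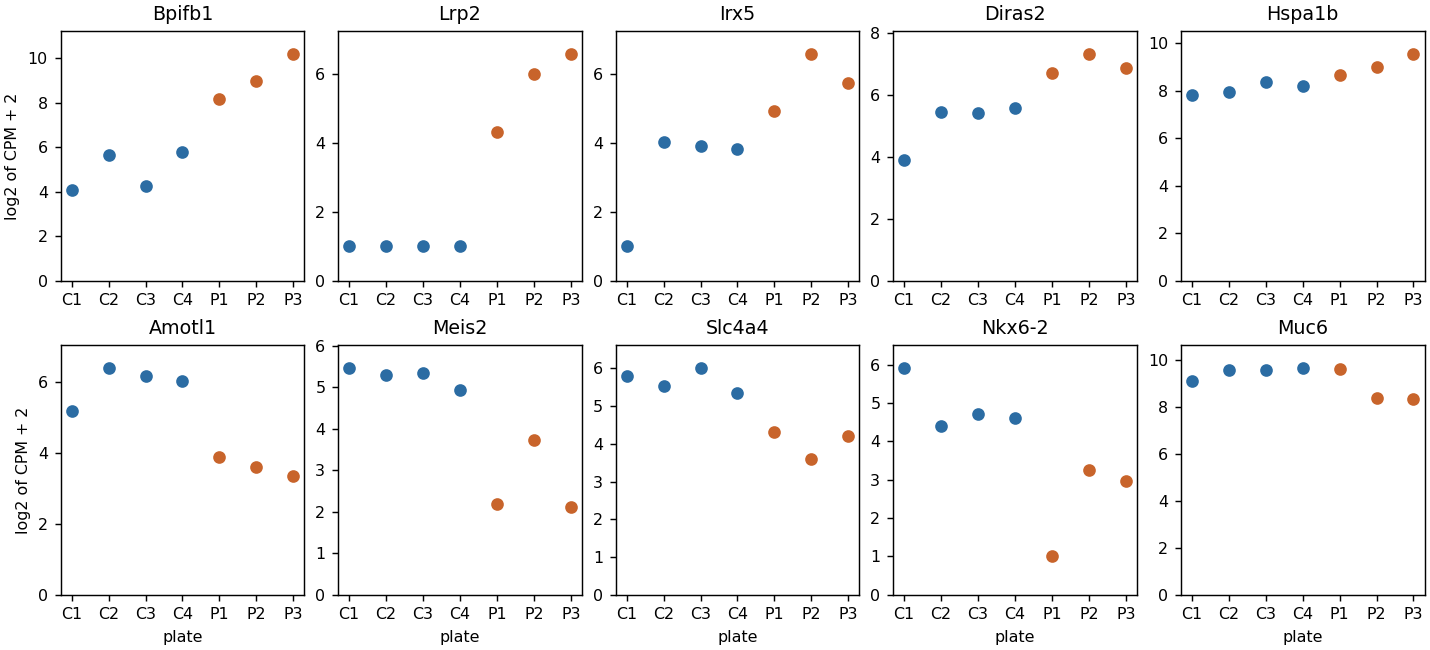
Level in members of each plate, as log2 of TMM-scaled CPM + 2 on the y axis, of Bpifb1, Lrp2, Irx5, Diras2, Hspa1b, Amotl1, Meis2, Slc4a4, Nkx6-2 and Muc6; each point is 1 plate (C corpus, P pylorus). Bpifb1, Lrp2 and Amotl1 passed in limma and the others did not, and Muc6, a gene of the rule shown as a description, lies with the corpus plates on P1.

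Transcription factors of region and lineage were counted from a list. Of 26 tested, 0 passed in limma, 5 had an unadjusted p under 0.05, and the median log2 difference was 0.17, beside -0.00142 over all genes tested. Irx2, Irx3 and Irx5 were higher and Meis2 and Nkx6-2 lower in pylorus without overlap, of which Irx2, Irx3 and Nkx6-2 are named after their values were seen. Over all 7658 genes tested, 203 (2.65%) were higher and 170 (2.22%) lower without overlap, and 235 had an unadjusted limma p under 0.05. Irx2 was at 0 to 5.77 CPM on corpus plates and 16.3 to 19.99 CPM on pylorus plates, and Irx3 at 1.63 to 5.05 and 12.8 to 18.8 CPM. Nkx6-2, a homeobox factor, was at 19.3 to 58.6 and 0 to 7.52 CPM.

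Genes of mucus production gave no call between the regions. Of 21 mucin glycosylation genes tested, 14 were higher and 7 lower in pylorus (median log2 difference 0.06), and 0 passed in limma with 1 at an unadjusted p under 0.05. Of 28 endoplasmic reticulum and secretion genes, 18 were higher and 10 lower (median 0.11), with 0 passing in limma and 0 at an unadjusted p under 0.05. Of the 25 genes that led in members, 14 were higher and 11 lower, with 0 passing in limma and 1 at an unadjusted p under 0.05. For comparison, 49.8% of all genes tested were higher in pylorus.

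The 4 neck markers outside the rule each had a log2 difference under 0, from -0.94 for Tff2 to -0.04 for Ern2, and none passed in limma. The sign turned under other settings for Spp1, Agr2 and Ern2. Muc6 and A4gnt chose the wells, and their levels by plate are a description with no test.

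Transcripts linked to dissociation stress and mitochondrial transcripts lay apart by region. The 14 stress genes summed to 2369 to 2811 CPM in corpus members and 3621 to 3972 CPM in pylorus members, without overlap. In this fit all 14 had a log2 difference above 0 (median 0.54) and 5 did not overlap, while 0 passed in limma and 6 had an unadjusted p under 0.05. Among all 7658 genes tested, 3811 (49.8%) were higher in pylorus and 203 (2.65%) were higher without overlap. An unadjusted limma p under 0.05 was reached by 235 of them. Hspa1b, a heat shock protein whose reads can be shared with the near-identical Hspa1a, was at 219.9, 244.9, 323.2 and 286.6 CPM on the corpus plates and 401.7, 509.1 and 743 CPM on the pylorus plates. Mitochondrially encoded transcripts summed to 154843 to 170542 CPM in corpus and 126842 to 151249.6 CPM in pylorus. Of 18 tested, 17 were lower in pylorus, beside 3847 of 7658 over all genes. The part of either in the differences between regions was not tested.

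In the 4 alike plates taken alone, 40 of 7924 genes passed in limma (0.505%), 21 higher and 19 lower in pylorus. Of these, 4 were genes of the rule and are not read as a result, and Bpifb1, Lrp2 and Amotl1 were among the other 36. Pigr was at 98.7 CPM ± 13.6 in corpus and 431.2 ± 77.9 in pylorus (SD, n = 2 plates each; log2 difference 2.1 ± 0.17 SE, limma adjusted p = 2.87e-07). Pitx1, a homeobox factor, was at 4.50 and 67.7 CPM (limma adjusted p = 1.28e-06). Over all 7 plates Pigr and Pitx1 did not pass, and pylorus replicate 1 lay on the corpus side: its members had 43.5 CPM of Pigr and 5.12 CPM of Pitx1, against 397.5 and 72.7 CPM on pylorus replicate 2. With 2 plates in each region, these calls rest on little replication. The 4 plates were also picked as alike with earlier results known. Their spread within a region may therefore be understated, and these p-values may be too small.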

How the data were processed

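Single cells from the gastric corpus (4 plates) and gastric pylorus (3 plates) of C57BL/6 mice were measured by SORT-seq. The authors deposited 1 table of UMI counts per plate, with genes as lines and wells as columns, per the file headers. The values are raw UMI counts of another layout than the unit check reads as a count table, so the quasi-likelihood model planned for counts was not used. Reads were placed on mm9, per the submitters' processing notes, while the sources used here name no aligner or counter.

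Plates were grouped by title, and 0 columns were without a sample. Spike-ins were left out, and the UMIs of members were summed per plate. limma 3.58.1 with a mean trend (R 4.3.3) was run on log2 of TMM-scaled CPM with a pseudocount of 2, for genes with at least 15 UMIs in total that also reached about 10 (scaled to the median plate) on 3 plates or more. Adjusted p-values follow Benjamini-Hochberg. Other steps used Python 3.11.15, numpy 2.4.6, pandas 2.3.3, scipy 1.17.1 and matplotlib 3.10.9. Shares were compared by exact permutation over plates, and Wilson intervals cover counting error only. The fits were tested on simulated data. The sorter filled each well, so no doublet caller was run. Immune wells held at least 5 UMIs of immune markers, at least 2 of them from Ptprc and Laptm5.

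The members and all gene lists were chosen with earlier results of these data known. Named for the regions were the genes that passed and, among genes of at least 32 CPM in one region and without overlap, the 12 with the smallest p in each direction. Named for members against other wells were, at 100 CPM or more and on the same side on every plate, the 25 highest and 10 lowest median ratios. Of each list, up to 4 genes that passed or else the 2 most abundant were named. The 6 neck markers, the 10 genes of the rule, Lrp2, Bpifb1 and Amotl1 were always named, and other genes were chosen after their values were seen. The list of mitochondrial genes was widened since the tables spell them in 2 ways. Promoters came from RefSeq (GRCm38.p6). 1 named gene is not reported here.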

Additional observations from a re-analysis of the deposited data

Results flagged for a closer look

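Members of corpus replicate 1 lay far from those of the other corpus plates in 4 of 39 tests for a single distant plate. The tests covered 38 genes and the share of members, and the 4 flagged were genes. Chance gives about 1 in 20 for a test. The genes were those named for the regions, the neck markers and the rule's genes, so this rate is only a guide. Tff2 was at 30415 TMM-scaled CPM on corpus replicate 1 and 4405 to 7274 on the other corpus plates. Sord, sorbitol dehydrogenase, was at 118.9 CPM against 25.97 to 41.7. Diras2 was at 13.03 CPM against 41.1 to 46.03, and Irx5 was at 0 against 12.2 to 14.2 CPM.

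Tff2 in members relative to the other kept wells went opposite ways in the regions. The median log2 ratio was -0.47 in pylorus, with all 3 plates under 0, and the corpus plates lay between 0.23 and 0.98. Of the 40 genes looked at for this pattern, only Tff2 showed it. That count cannot tell how rare the pattern is. Most of the 40 were the genes with the highest or lowest median ratios. Those had been picked for lying on the same side on every plate, so they could not show it. The difference between the regions was not tested.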

How the results depend on the processing

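The depth of single wells, the number of plates and the membership rule limited these results, and where a call was lost the cause was not tested. Against 3 genes called between the regions, limma called 0 at a mean of at least 32 CPM (88 at an unadjusted p under 0.05; Lrp2 is under that level), 1 with voom weights and 40 in the 4 alike plates. With members thinned to 1000 UMIs it called 0, with 13 of 522 genes at an unadjusted p under 0.05. Leaving out each plate gave 0 to 3 calls. Same-numbered plates deviated from their group means with correlations of 0.366, -0.03 and 0.309, and corpus replicates 2 and 3 correlated best with other numbers. These values cannot tell whether the numbers pair the plates, since other differences between plates enter them. With a replicate block limma called 1 gene, and the difference in share was -4.04 points (exact permutation p = 0.25, the smallest possible). The planned count models were not run.

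The difference in share kept its direction but missed the threshold at 3000 UMIs or more (-4.08 points), at 5 UMIs and 0.05% of Muc6 and A4gnt (-4.23), with pit genes under 3% (-3.41), among wells with fewer than 5 immune and mast UMIs (-3.46) and in the 4 alike plates (-5.24, where p cannot go under 0.167). Without 1 plate it was -4.87 to -2.83. With wells thinned to 1000 UMIs, 137 genes were above and 49 below the other wells on every plate, and in the 4 alike plates 242 were below. The median log2 ratio of Tff2 turned to -0.09661 under the limit of 5 UMIs and to -0.09539 both in the 4 alike plates and without corpus replicate 1.

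The regional log2 difference turned for 9 genes, none of which passed. With a term for corpus replicates 1 and 2 and pylorus replicate 1 it was 0.10 for Spp1, 0.0041 for Agr2, -0.28 for Tff1 and -0.0039 for Chga. Under the limit of 5 UMIs it was 0.35 for Spp1 and 0.22 for Muc5ac, which was at 0.21 with pit genes under 3%. The replicate block gave 0.018 for Ern2 and 0.27 for Atp4b. Thinning to 1000 UMIs gave -0.75 for Gif and -0.20 for Chga, and the 4 alike plates gave -0.16 for Tff1. Without 1 plate the values ran from -2.10 to 0.28 for Spp1, -0.67 to 0.11 for Agr2, -0.30 to 0.13 for Ern2, -0.0395 to 0.54 for Gif, -0.61 to 0.79 for Tff1, -0.26 to 1.28 for Gkn1, -1.25 to 0.49 for Atp4b and -0.93 to 1.41 for Chga. Kcne3 was not fitted without some plates. Of the other values for named genes, 808 kept direction and call, 27 lost their call and 13 gained one.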
